A study of Mus musculus with 3 samples.

Results

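A group of 10 imprinted genes, chosen for their known effects on growth, was examined in melan-a, an immortalized line of mouse melanocytes. The genes were taken by name as *Igf2*, *Igf2r*, *Dlk1*, *Peg3*, *Peg10*, *Mest*, *Grb10*, *Snrpn*, *Plagl1* and *Ndn*, and all 10 were among the 22698 Ensembl genes in the files. The cells came from Ink4a-ARF-/- mice on the C57BL/6J background and were untreated. All cultures grew in RPMI medium with 10% fetal bovine serum, 200 nM of the phorbol ester TPA and 200 pM cholera toxin. RNA-seq was performed on 3 libraries of this 1 line, labelled as replicates 1, 3 and 4, so no comparison between conditions exists. Values were deposited as FPKM, which is reads scaled to the length of the gene and to the number of reads in the library. They were set side by side between genes, but the length used by the authors is not known. The libraries also differ by a trend with GC content, given below, so small differences between genes are uncertain. The design text calls the libraries bioreplicates but does not say how they were kept apart, so the spread given is the spread between these 3 libraries, which may be technical. The files keep no read totals, but the steps of the lowest values gave a scaled size of 46900000 to 66300000 reads per library.

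Genomic imprinting silences 1 parental copy of a gene, usually by DNA methylation that is laid down in the egg or the sperm and kept through later divisions. Many imprinted genes regulate fetal growth, and paternally expressed genes often promote it whereas maternally expressed genes often restrain it. Insulin-like growth factor 2, encoded by *Igf2*, is the best known promoter of growth, and IGF2R carries it to the lysosome for destruction. From textbook knowledge, 8 of the genes were assigned to the paternally expressed class and 2, *Igf2r* and *Grb10*, to the maternally expressed class. *Grb10* is maternally expressed in most mouse tissues, but paternally in neurons. The FPKM values are summed over both parental copies, and the copy of origin was not measured here.

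Of the 10 genes, 7 were at 1 FPKM or more in all 3 replicates, a level reached by 44.1% of all genes in the files. These were *Plagl1*, *Igf2r*, *Snrpn*, *Peg3*, *Mest*, *Ndn* and *Peg10* in descending order, from 128 to 2.79 FPKM. The remaining 3, *Igf2*, *Grb10* and *Dlk1*, never exceeded 0.03 FPKM. *Dlk1* was at 0 in all replicates, as were 31.4% of all genes. The median of the members' means was 4.18 FPKM, against 0.277 FPKM over all genes. No member lay between 0.03 and 2.55 FPKM in any replicate, so the genes fell into a measurable and a near-silent group. In such bulk samples a low level in every cell and a high level in few cells cannot be told apart.

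The sequence before the start sites is shown for the highest and the lowest gene of each parental class, *Plagl1* and *Dlk1* among the paternally expressed and *Igf2r* and *Grb10* among the maternally expressed genes. Each window holds the 250 bases before a RefSeq start site (build GRCm38.p6), located in mm9 by an exact and single match and printed only where no annotated exon lies. The stretches are chr10:12810388-12810496 (plus strand) for *Plagl1*, chr17:12962573-12962822 (minus strand) for *Igf2r*, chr12:110690783-110691032 (plus strand) for *Dlk1* and chr11:11937424-11937673 (minus strand) for the window of *Grb10* farthest upstream. Capitals mark CpG, the dinucleotide that is methylated in imprinting.
Plagl1: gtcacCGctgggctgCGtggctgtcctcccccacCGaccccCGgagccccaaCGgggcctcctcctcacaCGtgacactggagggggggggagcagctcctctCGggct
Igf2r: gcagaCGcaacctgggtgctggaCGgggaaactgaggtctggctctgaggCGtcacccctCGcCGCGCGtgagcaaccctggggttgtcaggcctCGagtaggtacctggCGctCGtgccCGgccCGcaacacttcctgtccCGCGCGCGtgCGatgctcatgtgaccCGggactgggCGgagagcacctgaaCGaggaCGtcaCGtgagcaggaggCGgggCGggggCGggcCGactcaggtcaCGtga
Dlk1: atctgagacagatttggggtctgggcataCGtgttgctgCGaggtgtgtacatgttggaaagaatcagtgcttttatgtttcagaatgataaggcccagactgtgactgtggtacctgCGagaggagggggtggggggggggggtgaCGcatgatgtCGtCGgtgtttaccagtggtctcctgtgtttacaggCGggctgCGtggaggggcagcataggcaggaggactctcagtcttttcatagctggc
Grb10: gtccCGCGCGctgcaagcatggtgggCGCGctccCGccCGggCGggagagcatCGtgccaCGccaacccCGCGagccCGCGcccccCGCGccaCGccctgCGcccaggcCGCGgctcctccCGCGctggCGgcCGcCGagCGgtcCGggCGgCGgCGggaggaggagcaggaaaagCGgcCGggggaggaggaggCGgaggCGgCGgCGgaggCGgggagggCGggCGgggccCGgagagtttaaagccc
The whole windows held 19 CpG for *Plagl1*, 27 for *Igf2r*, 8 for *Dlk1* and 40 for *Grb10*, against a median of 6 over the 32851 windows of the table. The near-silent *Grb10* thus had the window richest in CpG, with more than 98.7% of all windows. Its other window held 8. The 18 windows of the 9 genes in the table ranged from 1 to 40 CpG. *Peg10* had no entry. The TFAP2 consensus GCCNNNGG, searched on both strands, was found in 8 of the 18 windows and in 48.6% of all windows. These were 3 windows of *Igf2*, 3 of *Mest*, of which a pair nearly coincide, and 1 each of *Grb10* and *Plagl1*. The letters GGGGCCCC, known as a binding sequence of PLAGL1 itself, were found in 1 of the 18, that of *Peg3*, and in 0.889% of all windows. No window of these genes held both motifs.

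*Snrpn* and *Ndn*, which lie 2210 kb apart on chromosome 7, shared a short palindrome that was noticed when the sequences were read. The third of 4 *Snrpn* windows, at chr7:67285112-67285361 (minus strand), and the *Ndn* window, at chr7:69492913-69493162 (plus strand), are shown for it, again with CpG in capitals.
Snrpn: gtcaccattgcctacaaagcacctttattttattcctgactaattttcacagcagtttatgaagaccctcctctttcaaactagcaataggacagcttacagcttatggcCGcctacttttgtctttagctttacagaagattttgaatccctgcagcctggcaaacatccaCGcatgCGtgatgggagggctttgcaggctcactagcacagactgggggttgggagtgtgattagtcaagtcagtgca
Ndn: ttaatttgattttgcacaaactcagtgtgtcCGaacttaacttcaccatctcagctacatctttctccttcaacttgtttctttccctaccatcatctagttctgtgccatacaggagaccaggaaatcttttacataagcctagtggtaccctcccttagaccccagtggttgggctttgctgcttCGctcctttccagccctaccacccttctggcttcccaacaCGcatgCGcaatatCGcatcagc
The letters CGCATGCG, which read the same on both strands, were found in 3 of 4 windows of *Snrpn* and in that of *Ndn*, but in 1.55% of all windows. These 3 *Snrpn* windows were alike over their whole length, with 81.6 to 82% identical bases, so they are not independent matches.

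*Plagl1* (also known as *Zac1*), which encodes a zinc finger transcription factor that acts on other imprinted genes, was the highest of the 10 genes. Its level was 123.2, 98.53 and 161.94 FPKM in replicates 1, 3 and 4, a mean of 128 ± 32 FPKM (SD, n = 3). Replicate 4 was the highest and replicate 3 the lowest, but every replicate was above all values of the other 9 genes. At this level 98.1% of all genes were lower. The gene spans chromosome 10 from 12810497 to 12851500 on the plus strand of mm9, with 27 annotated transcripts. The joined exons hold 7289 bases and the longest coding transcript 5260, and scaled to the latter the mean was 177 FPKM.

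*Igf2r*, the receptor that binds mannose 6-phosphate on lysosomal enzymes and also clears IGF2, was the only maternally expressed member above 1 FPKM. It gave 63.83, 58.32 and 62.92 FPKM in replicates 1, 3 and 4, a mean of 61.7 ± 3 FPKM (SD, n = 3). The 3 values lay close together, and none overlapped with *Plagl1* above or *Snrpn* below. The gene lies on the minus strand of chromosome 17 from 12875272 to 12962530. The antisense RNA that silences the paternal copy, *Airn*, overlaps 28354 bases of this span on the opposite strand and was not analysed here.

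*Snrpn* encodes SmN, a core protein of the spliceosome. Replicates 1, 3 and 4 gave 22.69, 25.73 and 23.24 FPKM (23.9 ± 1.6 FPKM, SD, n = 3). Unlike *Plagl1*, it was highest in replicate 3. It lies on the minus strand of chromosome 7 from 67127388 to 67285105. The upstream reading frame *Snurf* shares its transcript and was not analysed here.

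The other 4 measurable genes lay within a narrow range of low levels. *Peg3*, a large zinc finger protein linked to growth and maternal behaviour, was at 6.14, 5.1 and 7.71 FPKM in replicates 1, 3 and 4 (6.32 ± 1.3 FPKM, SD, n = 3). *Mest*, a protein of the alpha/beta hydrolase fold, was at 4.34, 4.37 and 5.02 FPKM (4.58 ± 0.38, SD, n = 3). *Ndn* encodes necdin, a growth suppressor of the MAGE family. It was measured at 3.79, 4.27 and 3.3 FPKM, a mean of 3.79 ± 0.49 (SD, n = 3). *Peg10*, which derives from a retrotransposon and is needed for the placenta, was at 2.57, 2.55 and 3.26 FPKM (2.79 ± 0.4, SD, n = 3). *Peg3*, *Mest* and *Peg10* were highest in replicate 4, whereas *Ndn* was lowest there. The 4 genes kept the same order in every replicate, although neighbours were close. *Mest* exceeded *Ndn* by 1.02 times in replicate 3 and *Ndn* exceeded *Peg10* by 1.01 times in replicate 4. Their ranges did not overlap, but the margins were small. The lowest value of *Peg3* was 5.1 FPKM against 5.02 for the highest of *Mest*, the lowest of *Mest* 4.34 against 4.27 for *Ndn*, and the lowest of *Ndn* 3.3 against 3.26 for *Peg10*. Among the neighbours in the whole order, ranges overlapped only between *Igf2* and *Grb10* and between *Grb10* and *Dlk1*.

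Each of these 4 genes lies apart from the others. On mm9, *Peg3* spans chromosome 7 from 6656603 to 6683132 on the minus strand and the single-exon *Ndn* spans 69493163 to 69494814 of the same chromosome on the plus strand. *Mest* spans chromosome 6 from 30673547 to 30698457, and *Peg10* from 4697306 to 4710514, both on the plus strand. Of the exon bases of *Mest*, 23% overlap exons of *Copg2* on the opposite strand. The libraries were stranded, but whether the counting used strand is not given in the sources used here, and without it reads in this overlap cannot be assigned to either gene.

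*Igf2* was close to silent. It was listed at 0.03, 0 and 0.02 FPKM in replicates 1, 3 and 4. With its joined exons of 5493 bases, and allowing for rounding, this is 8 to 10 reads, at most 1 read and 6 to 9 reads. In comparison, 3 reads came to between 0.0082 and 0.012 FPKM on this gene. It spans chromosome 7 from 149836673 to 149852721 on the minus strand, and 1.78% of its exon bases overlap *Igf2as* on the other strand. *Grb10*, an adaptor that binds the insulin and IGF1 receptors and restrains growth, gave 0.01, 0 and 0.01 FPKM. This is 3 to 7 reads in replicate 1, at most 2 in replicate 3 and 4 to 9 in replicate 4, over joined exons of 9164 bases between 11830511 and 11938686 on the minus strand of chromosome 11. *Dlk1* encodes a transmembrane protein that resembles Notch ligands and holds back adipocyte differentiation. It was at 0 in each replicate, which allows at most 1 read in any of them, between 110691033 and 110701546 on chromosome 12. The values of these 3 genes overlap, so they have no order.

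**Figure D1:**
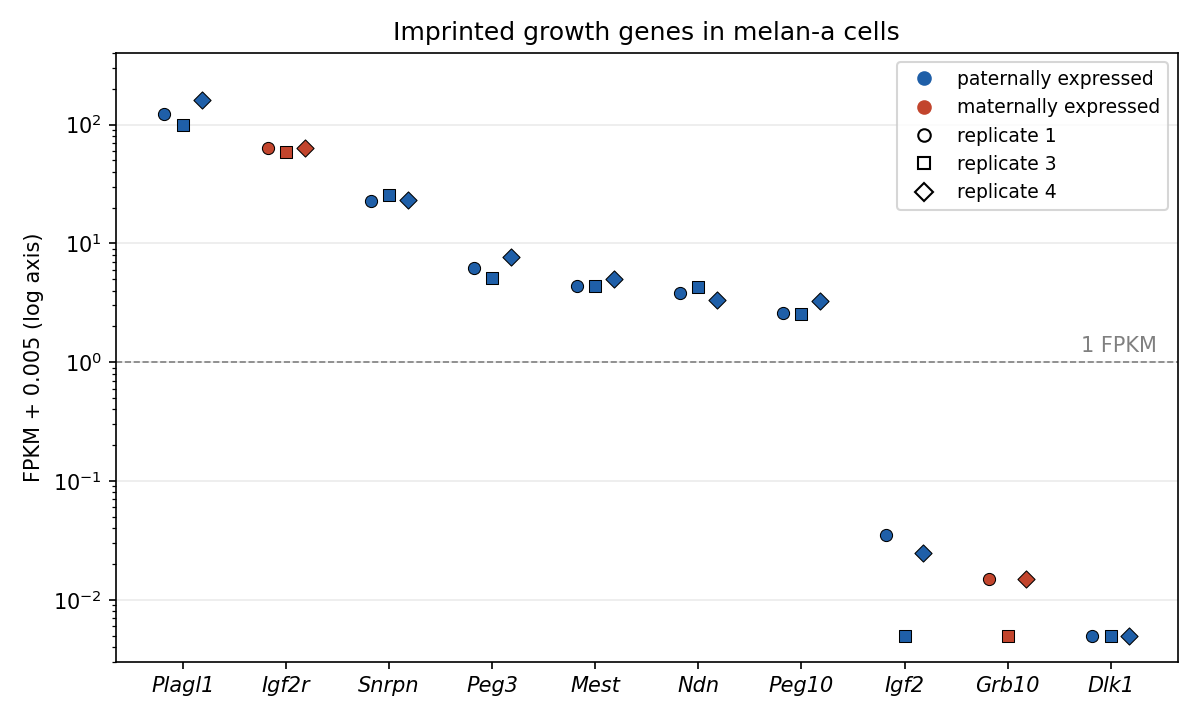
FPKM of each gene in replicates 1, 3 and 4 on a log axis after adding 0.005, with the parental class in colour and the replicate as the symbol, 1 point per library. The 7 measurable genes sit above the dashed line at 1 FPKM in every replicate, led by *Plagl1* and *Igf2r*, and *Igf2*, *Grb10* and *Dlk1* sit at or below 0.03 FPKM.

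Both parental classes held measurable and near-silent genes. Among the paternally expressed genes 6 of 8 were at 1 FPKM or more, and among the maternally expressed genes 1 of 2 was, beside 44.1% of all genes. The median over the paternally expressed genes was 4.06, 4.32 and 4.16 FPKM in replicates 1, 3 and 4. Over the maternally expressed genes it was 31.9, 29.2 and 31.5 FPKM, which with 2 genes is the midpoint of *Igf2r* and *Grb10*. On the log2(FPKM + 1) scale the maternal median exceeded the paternal by 0.68, 0.53 and 0.66, a mean of 0.62 ± 0.08 (SD, n = 3). With a pseudocount of 0.1 the difference was -0.73, so it has no stable direction. The summed level went the other way, with 163, 141 and 204 FPKM for the paternally and 63.8, 58.3 and 62.9 FPKM for the maternally expressed genes. *Plagl1* alone made up 75.7%, 70.1% and 79.2% of the paternal sum. No test was made over genes, which are not replicates.

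The spread between libraries differed from gene to gene. The highest replicate was 1.64 times the lowest for *Plagl1*, 1.51 for *Peg3*, 1.29 for *Ndn*, 1.28 for *Peg10*, 1.16 for *Mest*, 1.13 for *Snrpn* and 1.09 for *Igf2r*. Thus 2 of 7 genes reached 1.5, against 18.9% of the genes at 1 FPKM or more. Across those genes, the ratio of replicate 4 to replicate 3 fell with the GC content of the longest coding transcript (Spearman's rho -0.78 across 10006 genes, which share the same libraries and are not independent). *Plagl1* and *Peg3*, with 46.4% and 46.8% GC against a median of 50.5%, were higher in replicate 4 by 0.72 and 0.60 on the log2 scale. *Ndn*, with 54.6% GC, was lower by 0.37 (log2 ratio -0.37). *Snrpn* went against this trend, with 45.5% GC and a log2 ratio of -0.15. After the trend with GC was subtracted, the fold between replicates was 1.39 for *Plagl1*, 1.35 for *Snrpn* and 1.29 for *Peg3*, and 0 of 7 genes reached 1.5, against 5.68% of the genes. *Plagl1* still varied more than 89.3% of the genes, and for *Snrpn* the share rose from 26.8% to 86.7%. The part of GC content in these differences was not tested otherwise.

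**Figure D2:**
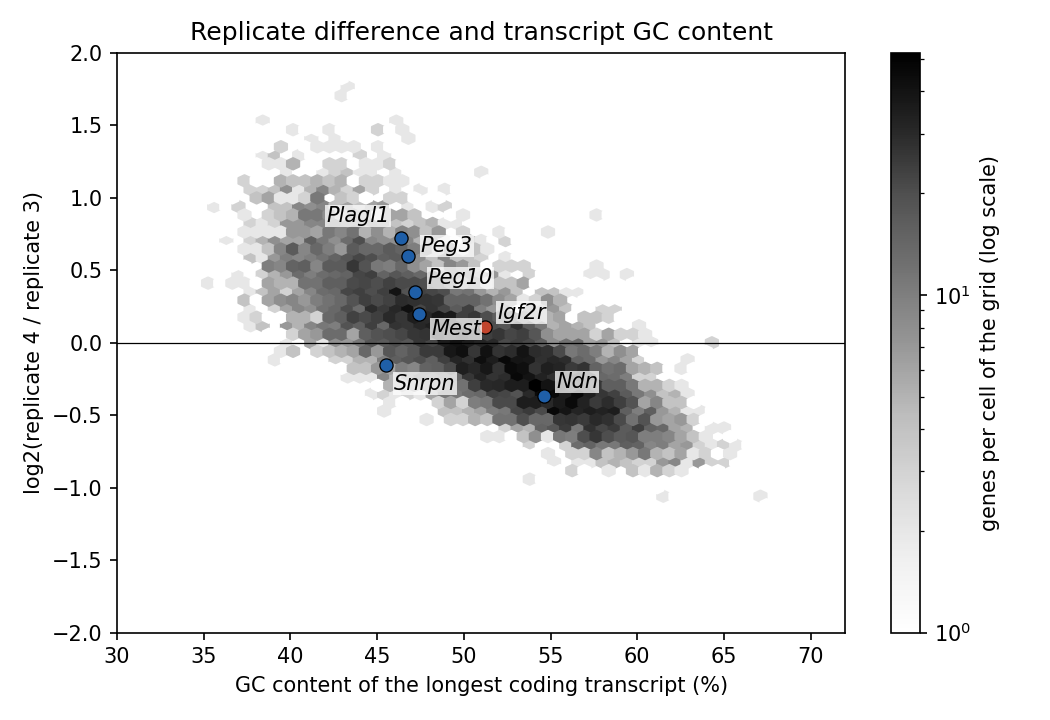
The log2 ratio of replicate 4 to replicate 3 against the GC content of the longest coding transcript, as the density of 10006 genes at 1 FPKM or more in all replicates, with the 7 measurable imprinted genes as coloured points (blue paternally, red maternally expressed). *Plagl1* at 0.72 lies above the cloud's centre at its GC content and *Snrpn* at -0.15 below it.

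Relatives of the genes that are not on the imprinted lists were measured in the same libraries, to see whether a silent or low imprinted gene had a counterpart at a higher level. *Snrpb*, which encodes the SmB proteins closely related to SmN, was at 135.73, 158.55 and 124.64 FPKM, 5.98, 6.16 and 5.36 times the level of *Snrpn* in the same replicates. *Maged1*, a MAGE protein like necdin, was at 209 ± 19 FPKM (SD, n = 3), between 53.8 and 58.4 times *Ndn*. Another MAGE gene, *Ndnl2*, was lower than *Ndn* at 2.7 ± 0.04 FPKM. *M6pr*, the second mannose 6-phosphate receptor, which does not bind IGF2, was nearly level with *Igf2r* at 69.44, 66.7 and 68.45 FPKM. It was higher in every replicate, by 1.09, 1.14 and 1.09 times.

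For the transcription factors of the PLAG family the imprinted gene stood above its relatives. *Plagl1* was 18, 14.1 and 24.1 times *Plagl2* (6.85 ± 0.13 FPKM, SD, n = 3). *Plag1*, which activates *Igf2* in other settings, was at 0.82, 0.43 and 1.53 FPKM. *Plagl1* was 150, 229 and 106 times *Plag1* in replicates 1, 3 and 4. The log2(FPKM + 1) scale below lowers this ratio and narrows its spread, because *Plag1* lies near the added 1. In the near-silent genes the relatives were also low. *Dlk2* was at 1.18, 1.57 and 0.97 FPKM with *Dlk1* at 0, and *Grb14* at 1.2, 1.5 and 1.03 FPKM with *Grb10* at 0.01 or less. *Grb7* stayed at or below 0.04 FPKM. *Igf1* was listed at 0.01, 0 and 0 FPKM and *Ins1* at 0 throughout. On the log2(FPKM + 1) scale the imprinted gene minus its relative was -0.14 ± 0.04 for *Igf2r* and *M6pr*, -2.49 ± 0.11 for *Snrpn* and *Snrpb*, -5.46 ± 0.04 for *Ndn* and *Maged1* and 0.37 ± 0.13 for *Ndn* and *Ndnl2* (SD, n = 3). It was 4.01 ± 0.38 for *Plagl1* and *Plagl2*, 6.07 ± 0.06 for *Plagl1* and *Plag1*, -1.15 ± 0.19 for *Dlk1* and *Dlk2* and -1.15 ± 0.16 for *Grb10* and *Grb14* (SD, n = 3). These 8 of 11 pairs could be compared, and each ratio had the same sign in 3 of 3 replicates. An exact two-sided sign-flip permutation test gave p = 0.25 for each of the 8 (0.25 also after Benjamini-Hochberg adjustment), the smallest value that 3 replicates allow, so no pair could pass 0.05.

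**Figure D3:**
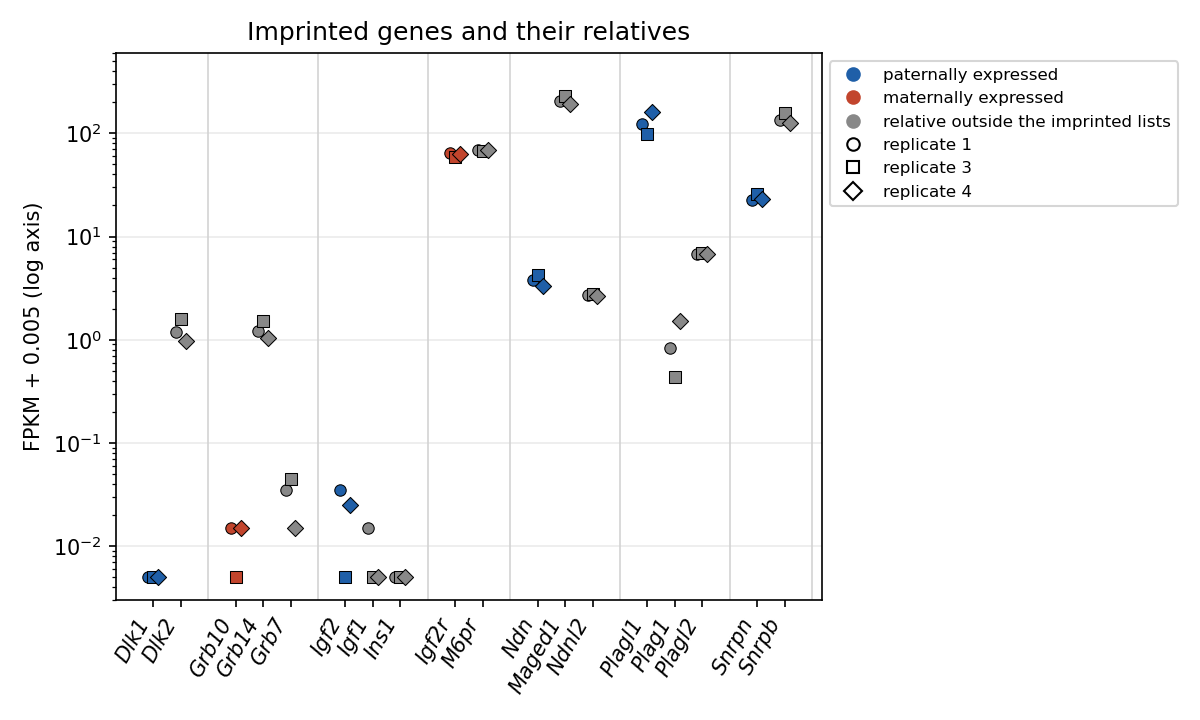
FPKM per replicate on a log axis after adding 0.005 for the 7 imprinted genes with relatives (coloured) and for the relatives (grey), 1 point per library. *Snrpb* and *Maged1* lie above *Snrpn* and *Ndn*, *M6pr* lies beside *Igf2r*, and *Plagl1* lies above *Plag1* and *Plagl2*.

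Neighbours in the same imprinted clusters were seldom at the level of the gene. *Sgce*, the paternally expressed sarcoglycan epsilon gene, begins 0.101 kb from *Peg10* on the opposite strand and was at 50.88, 46.45 and 56.43 FPKM, against 2.57, 2.55 and 3.26 for *Peg10*. The other neighbours of *Peg10*, *Ppp1r9a* and *Asb4*, were at 0 and 0.00333 FPKM on average. *Copg2*, a coat protein gene that overlaps the 3' end of *Mest*, was at 18.7 ± 2 FPKM (SD, n = 3), and *Klf14* at 0.00333. In the *Snrpn* and *Ndn* region the ubiquitin ligase gene *Ube3a*, which is imprinted in neurons, was at 9.29 FPKM, whereas *Mkrn3* was at 0.13 and *Magel2* at 0. *Usp29* and *Zim1* beside *Peg3* were at 0.00667 and 0 FPKM. Around *Igf2r*, *Slc22a2* was at 0.113 FPKM and *Slc22a3*, which is imprinted in the placenta, at 0. Around the near-silent genes none of the neighbours listed here was at 1 FPKM or more, beside 44.1% of all genes. Other genes of these regions were not examined as neighbours. *Rtl1* and *Dio3* near *Dlk1* and *Ins2* near *Igf2* were at 0, and *Ddc* and *Cobl* near *Grb10* were at 0.0333 and 0.05 FPKM. The RNAs *H19*, *Meg3* and *Hymai* were not analysed here.

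A wider set of 29 other imprinted genes held 7 at 1 FPKM or more in all replicates (24.1%, against 44.1% of all genes). Another 12 were at 0 in all replicates (31.4% of all genes were). Their median was 0.00333 FPKM, against 0.277 over all genes. Of 14 paternally expressed genes 3 were measurable, *Sgce* at 51.3, *Mcts2* at 9.64 and *Zrsr1* at 2.54 FPKM. The last 2 are retrotransposed copies of genes elsewhere, so their reads may partly belong to the parent genes. *Magel2*, *Nnat*, *Nap1l5*, *Rtl1*, *Slc38a4*, *Zdbf2*, *Rasgrf1* and *Dio3* were at 0. Of 15 maternally expressed genes 4 were measurable. They were *Tssc4* at 39, the oxysterol-binding protein gene *Osbpl5* at 31.3, *Copg2* at 18.7 and the transporter gene *Slc22a18* at 5.15 FPKM. *Zim1*, *Ppp1r9a*, *Calcr* and *Slc22a3* were at 0. Many of these genes are imprinted only in some tissues, and whether they are imprinted in melan-a cells is not known from these data.

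The IGF pathway was examined because *Igf2*, *Igf2r* and *Grb10* act on it. The list held ligands, receptors, adaptors, binding proteins and proteins that bind the *Igf2* mRNA, but no target genes. Of 23 other genes 10 were at 1 FPKM or more (43.5%, against 44.1% of all genes). The ligands *Igf1*, *Ins1* and *Ins2* never exceeded 0.01 FPKM. Among the receptors *Igf1r*, through which IGF2 signals growth, was at 8.35, 8.61 and 6.83 FPKM and *Insr* at 4.2, 3.94 and 4.91 FPKM, and *Insrr* was at 0. The adaptors *Shc1*, *Irs1* and *Irs2* were at 79.6, 9.84 and 6.67 FPKM, and *Irs4* was at 0. Of 10 binding proteins and their partners 3 were measurable. *Igfbp7*, which binds IGFs weakly, was at 779.63, 733.86 and 821.01 FPKM and *Igfbp3*, the main carrier in serum, at 51.55, 58.35 and 49.14 FPKM. *Igfbp4* was at 2.6 FPKM, and *Igfbp1* and the protease gene *Pappa2* were at 0. Of the genes for proteins that bind the *Igf2* mRNA, *Igf2bp2* was at 40.8 ± 4.2 FPKM (SD, n = 3), *Igf2bp3* at 1.29 and *Igf2bp1* at 0.61. Thus each group but the ligands held measurable genes.

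Of 8 factors that keep imprints, through cell division or in the early embryo, 6 were at 1 FPKM or more (75%, against 44.1% of all genes). *Trim28*, the corepressor that zinc finger proteins bring to imprinted regions, was at 94.82, 105.36 and 70.79 FPKM. Of the zinc finger proteins that bring it there, *Zfp57* was at 0.02, 0.02 and 0.03 FPKM and *Zfp445* at 4.14, 2.73 and 8.19 FPKM, highest in replicate 4 and lowest in replicate 3. *Dnmt1*, the maintenance methyltransferase, was at 33.86, 32.22 and 34.83 FPKM and its partner *Uhrf1* at 20.8 ± 0.92 FPKM (SD, n = 3). *Ctcf*, which insulates *Igf2* from its enhancers on the maternal chromosome, was at 15.8 ± 1.9 FPKM. *Dppa3*, which protects imprints in the early embryo, was at 0.

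**Figure D4:**
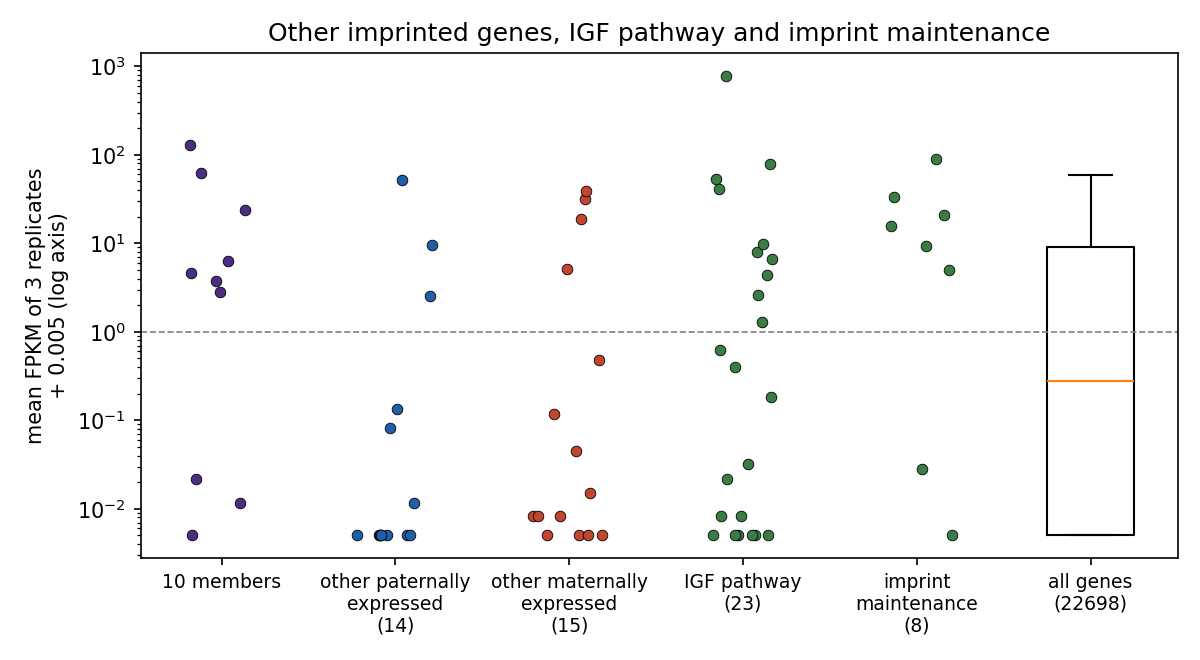
Mean FPKM over 3 replicates on a log axis after adding 0.005, 1 point per gene, for the 10 genes, the other imprinted genes by parental class, the IGF pathway and the imprint maintenance factors, with a box for all 22698 genes (median, quartiles, whiskers at the 5th and 95th percentiles). Of the other imprinted genes 7 of 29 lie above the dashed line at 1 FPKM, and *Igfbp7* at 778 FPKM is the highest point.

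The labelled cell type was checked with markers. All 8 melanocyte markers were at 1 FPKM or more, and their summed level was 5780 to 6620 FPKM. Of 20 markers of keratinocytes, fibroblasts, endothelial cells, macrophages and Schwann cells 4 were, and the summed level of the 20 was 20.6 to 24.7 FPKM. All 3 Schwann cell markers were among these 4, and they made up most of that sum. The 4 include *Col1a1* (1.54 FPKM) and the Schwann cell genes *Pmp2* (14 FPKM) and *Prx* (3.19 FPKM). *Krt1*, *Trp63*, *Lum* and *Ptprc* were at 0. The part of these markers in the levels of the imprinted genes was not tested.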

How the data were processed

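RNA-seq of 3 untreated melan-a libraries (stranded mRNA kit, Illumina) was analysed. The authors trimmed 10 bases from each read, aligned to mm9 with STAR 2.3.0e, removed rRNA reads and counted on an Ensembl annotation with HTSeq 0.5.3p3. They deposited FPKM with 2 decimals, labelled as TMM-scaled, and how FPKM was computed is not given in the sources used here. Symbols and positions came from GENCODE M1 on mm9, which held 22324 of 22698 genes. The members and lists were chosen with earlier results of these data known. All members are named, and of each list the 4 genes with the highest mean and those at 0 could be named. *Zfp57* and *Zfp445* were added after their values were seen. The palindrome was chosen after the sequences were seen. The value of 1 marker gene is not reported here.

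Genes with 1 transcript of at most 300 bases gave a scaled library size of 53900000, 46900000 and 66300000 reads for replicates 1, 3 and 4, at which low values fell within 0.021 to 0.028 of whole reads on average. Read numbers assume joined exons, as the length used by the authors is not known. Their ranges cover only the rounding of FPKM to 2 decimals, not counting error. For genes with several transcripts the mean distance was 0.101 to 0.129. Levels on the log2 scale used a pseudocount of 1. The GC trend was the median in 40 bins. Code ran in Python 3.11.15, numpy 2.4.6, pandas 2.3.3, scipy 1.17.1 and matplotlib 3.10.9 and was tested on simulated data. Alternatives were other thresholds, pseudocounts, scaling, left-out replicates and GC correction. Division by the longest transcript and leaving out *Grb10* were added after seeing the data.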

Additional observations from a re-analysis of the deposited data

How the results depend on the processing

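The number of measurable genes stayed at 7 of 10 members, and at 7 of 29 other imprinted genes, with thresholds of 0.5 and 2 FPKM and without each replicate. Rescaling each replicate to sum to 1000000 also left 7 members. None of these settings could change the count of members, because no member lay between 0.03 and 2.55 FPKM in any replicate. The maternal minus paternal difference, 0.62, ranged from 0.60 to 0.67 with 1 replicate left out. It was 3.3 with only the members at 1 FPKM or more, 0.11 after rescaling, 0.35 with means in place of medians, 0.4 per longest coding transcript and 3.6 without *Grb10*, and it turned to -0.73 with a pseudocount of 0.1. It rests on *Grb10*, 1 of 2 maternally expressed genes, which lies at the limit of detection. After correction for GC content 0 in place of 2 genes reached a fold of 1.5 between replicates. The ratios to relatives kept their sign under all 32 alternatives, which were a pseudocount of 0.1 and left-out replicates. Neither could turn a sign that was the same in every replicate, so this is no check of the sign. Transcript length was not varied for these ratios. The ratios of *Dlk1* and *Grb10* to their relatives depended on the pseudocount, at -3.72 and -3.64 with 0.1 against -1.15 for both with 1. That of *Plagl1* to *Plag1* also did, at 7.08 with 0.1 against 6.07 with 1. Of 60 alternative values for single members 13 moved by more than the SD, 9 by rescaling, which changes the unit, and 4 by the transcript length. With 3 values, a median or a mean without 1 replicate cannot lie more than the SD from the mean. Those settings could therefore not count as moved, and of the 10 members 4 moved with the transcript length. No paired analysis was possible because there is 1 group, so that no replicate numbers are shared between groups, and the ratios to relatives compare genes within a library. Depth limits *Igf2*, *Grb10* and *Dlk1*, whose reads were 10 or fewer in each library.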
